A study of Mus musculus with 14 samples.

Results

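The genes described here are the nuclear genes of oxidative phosphorylation, the set of mouse genes that encode subunits of the respiratory chain and of ATP synthase outside the mitochondrial genome. Members were taken by gene symbol from the deposited tables. Symbols qualified if they began with Ndufa, Ndufb, Ndufc, Ndufs, Ndufv, Uqcr, Cox4 to Cox8 or Atp5, or if they were Sdha, Sdhb, Sdhc or Sdhd, and pseudogene symbols containing -ps were left out. This gave 92 of the 46983 genes in each table. By role, 36 encode subunits of complex I, 4 of complex II, 8 of complex III, 18 of complex IV (Ndufa4 among them) and 15 of complex V. A further 9 are assembly or other factors, and Cox7a2l, a supercomplex factor, and Ndufa4l2, a paralog of Ndufa4, stand alone. The rule reads symbols only, so it misses subunit genes filed under other names, whose values are given apart.

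Oxidative phosphorylation passes electrons from NADH and succinate along the inner mitochondrial membrane to oxygen, and the proton gradient built on the way drives ATP synthase. Complex I (NADH dehydrogenase) and complex II (succinate dehydrogenase, which is also an enzyme of the TCA cycle) feed electrons into ubiquinone, complex III (the cytochrome bc1 complex) hands them to cytochrome c, complex IV (cytochrome c oxidase) gives them to oxygen, and complex V makes ATP. Most subunits are nuclear-encoded and imported, while a small core is made from mitochondrial DNA. In the brain, neurons depend heavily on this pathway, and mature oligodendrocytes, the myelin-forming glia, are known to survive on glycolysis when complex IV is lost.

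RNA-seq was carried out on oligodendrocytes differentiated from mouse neural stem cells and on mouse corpus callosum, the large myelinated tract between the hemispheres. The study compared libraries labelled Qk-KO with libraries labelled WT, and Qk encodes quaking, an RNA-binding protein of myelinating glia. The 3 Qk-KO cultures and 3 WT cultures were grown with 100 ng/ml IGF-1, 50 ng/ml T3 and 2 mM GlutaMAX. All their descriptions carry the same prefix 1T, whose meaning is not given, so whether they came from separate animals or lines is not known. The sample descriptions add 40HT to every culture labelled Qk-KO and EtOH to every culture labelled WT, so that treatment and genotype cannot be told apart in culture, and passages 7, 12 and 13 each gave a culture of both labels. The 4 Qk-KO callosum samples came from Plp-CreERT2;QK LoxP/LoxP mice and the 4 WT callosum samples from Plp-CreERT2;QK LoxP/+ mice, which carry the Cre transgene and 1 floxed copy themselves. Both callosum groups were FvB/C57BL6 hybrids given tamoxifen at 8 weeks and dissected 4 days afterwards. The Plp promoter directs Cre to cells of the oligodendrocyte lineage, while the tissue was sequenced whole. In bulk samples, fewer cells of a type and less RNA per cell cannot be told apart.

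Fitted counts totalled 38325833 to 48912999 per culture library and 15048646 to 27666519 per callosum library. The deposited library columns hold fitted means with no spread between replicates, so each gene is given as 1 fitted normalized count per label, and overlap between single libraries could not be examined. Gene coordinates are those of GENCODE M21 on GRCm38, the assembly also called mm10. Changes are log2 values, labelled Qk-KO minus labelled WT, with the standard error (SE) of the authors' deposited table, and a gene is called at an adjusted p under 0.05 over the whole table. Qk itself had a fitted normalized count of 139757 in cultures labelled Qk-KO and 88727 in cultures labelled WT (log2 change 0.66 ± 0.14, adjusted p = 4.19e-05, authors' deposited table). In callosum, it had 18336 in libraries labelled Qk-KO and 14639 in those labelled WT (0.32 ± 0.12, adjusted p = 0.162, authors' deposited table). Total Qk RNA thus goes against the labels, counts over the whole gene do not test a deletion of part of it, and every direction below is between labels. The markers of the oligodendrocyte lineage were present in both systems: the 10 oligodendrocyte markers summed to 101364 and 136145 fitted normalized counts in cultures labelled Qk-KO and WT. In callosum, they summed to 159041 and 150933 in libraries labelled Qk-KO and WT. In the cultures labelled Qk-KO and WT, 10 astrocyte markers summed to more, 175931 and 617442, and 10 neuron markers to 75181 and 33583. Such sums are not shares of cells, and they do not show the cultures to be mainly oligodendrocytes.

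The promoters of 3 members are shown because they frame the results below: Cox8b had the largest fall, Cox8a is its widely expressed counterpart, and Atp5o fell in culture and carries the motif found in the most member promoters. Each runs from 250 bases before to 50 bases after the gene's start, from RefSeq on GRCm38.p6, minus strand. Cox8b lies at chr7:140900397-140900696, Cox8a at chr19:7217567-7217866 and Atp5o at chr16:91931581-91931880. Capitals mark matches to 5 motifs searched on both strands: NRF-1 (GCGCA and GCGC around any 1 base), ETS (CCGGAAG), YY1 (AAGATGGCG), MEF2 (CTA and TAG around any 4 bases) and the E-box CAGCTG.
Cox8b: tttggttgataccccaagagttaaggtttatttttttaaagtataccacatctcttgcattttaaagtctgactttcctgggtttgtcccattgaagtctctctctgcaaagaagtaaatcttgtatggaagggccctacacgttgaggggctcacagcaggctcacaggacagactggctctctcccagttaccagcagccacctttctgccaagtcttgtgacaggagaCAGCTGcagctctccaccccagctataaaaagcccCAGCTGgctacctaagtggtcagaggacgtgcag
Cox8a: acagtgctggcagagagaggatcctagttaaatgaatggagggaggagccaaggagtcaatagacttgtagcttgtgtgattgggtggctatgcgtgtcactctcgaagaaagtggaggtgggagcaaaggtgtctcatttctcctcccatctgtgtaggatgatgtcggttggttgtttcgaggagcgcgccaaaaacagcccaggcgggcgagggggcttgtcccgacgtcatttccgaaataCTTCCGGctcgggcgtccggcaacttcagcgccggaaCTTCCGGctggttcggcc
Atp5o: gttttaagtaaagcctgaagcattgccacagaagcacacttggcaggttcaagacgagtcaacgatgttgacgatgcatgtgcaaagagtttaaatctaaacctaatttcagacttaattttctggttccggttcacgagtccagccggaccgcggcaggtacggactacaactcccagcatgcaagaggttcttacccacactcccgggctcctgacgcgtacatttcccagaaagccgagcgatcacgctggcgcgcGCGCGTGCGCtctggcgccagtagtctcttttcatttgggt
The Cox8b window holds 2 E-boxes and none of the other motifs, the Cox8a window holds 2 ETS matches, and the Atp5o window holds 1 NRF-1 match. These matches describe letters in a window and not bound sites. Promoters were found for 73 of the 92 members and for 27025 genes in all. NRF-1 letters occurred in 18 member promoters (24.7%) against 4.78% of all promoters, ETS letters in 16 (21.9%) against 9.12%, and YY1 letters in 6 (8.22%) against 1.49%. MEF2 letters occurred in 2.74% of member promoters against 3.7% of all, and the E-box in 8.22% against 16.1%. The median GC content was 57.3% in member promoters and 52.7% in all promoters. Among the 21 promoters of members that fell in culture, 5 (23.8%) held the NRF-1 letters, against 13 of 52 (25%) of the other members.

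In cultures labelled Qk-KO, 10 of 36 tested subunits of complex I, 4 of 4 of complex II, 5 of 8 of complex III, 4 of 15 of complex IV and 2 of 15 of complex V were called lower, and none of the 9 assembly or other factors. Differences between complexes were not tested. Of 89 members tested, 25 fell and 1 rose, which is 29.2% of members called against a background of 28.6% of the 17503 genes tested. Falls took 28.1% of members against 15.2% of all genes, and rises took 1.12% of members against 13.3% of all genes. The falls narrowed to 16.9% of members against 13.1% of all genes under scaling by library size. They were 14.6% against 12.3% when mitochondrially encoded genes were also left out of the library size. Most changes were small, with 12 members at -0.5 or below and 38 more between -0.5 and -0.25. Of the 89, 79 (88.8%) were negative, against 48.9% of all genes. The median change was -0.29 for members and 0.01 for all genes tested. Members are abundant transcripts, so they were also set beside the genes with a mean normalized count of at least 1000. There, 22 of 71 members fell (31%) and none rose, against 20.5% lower, 17.5% higher and 38% called in either direction of 6586 genes, of which 46.4% were negative. The medians were -0.30 for those members and 0.04 for all such genes. At an unadjusted p under 0.05, 42 members were lower and 2 higher in the authors' deposited table, against 19.1% and 18.3% of all genes.

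**Figure D1:**
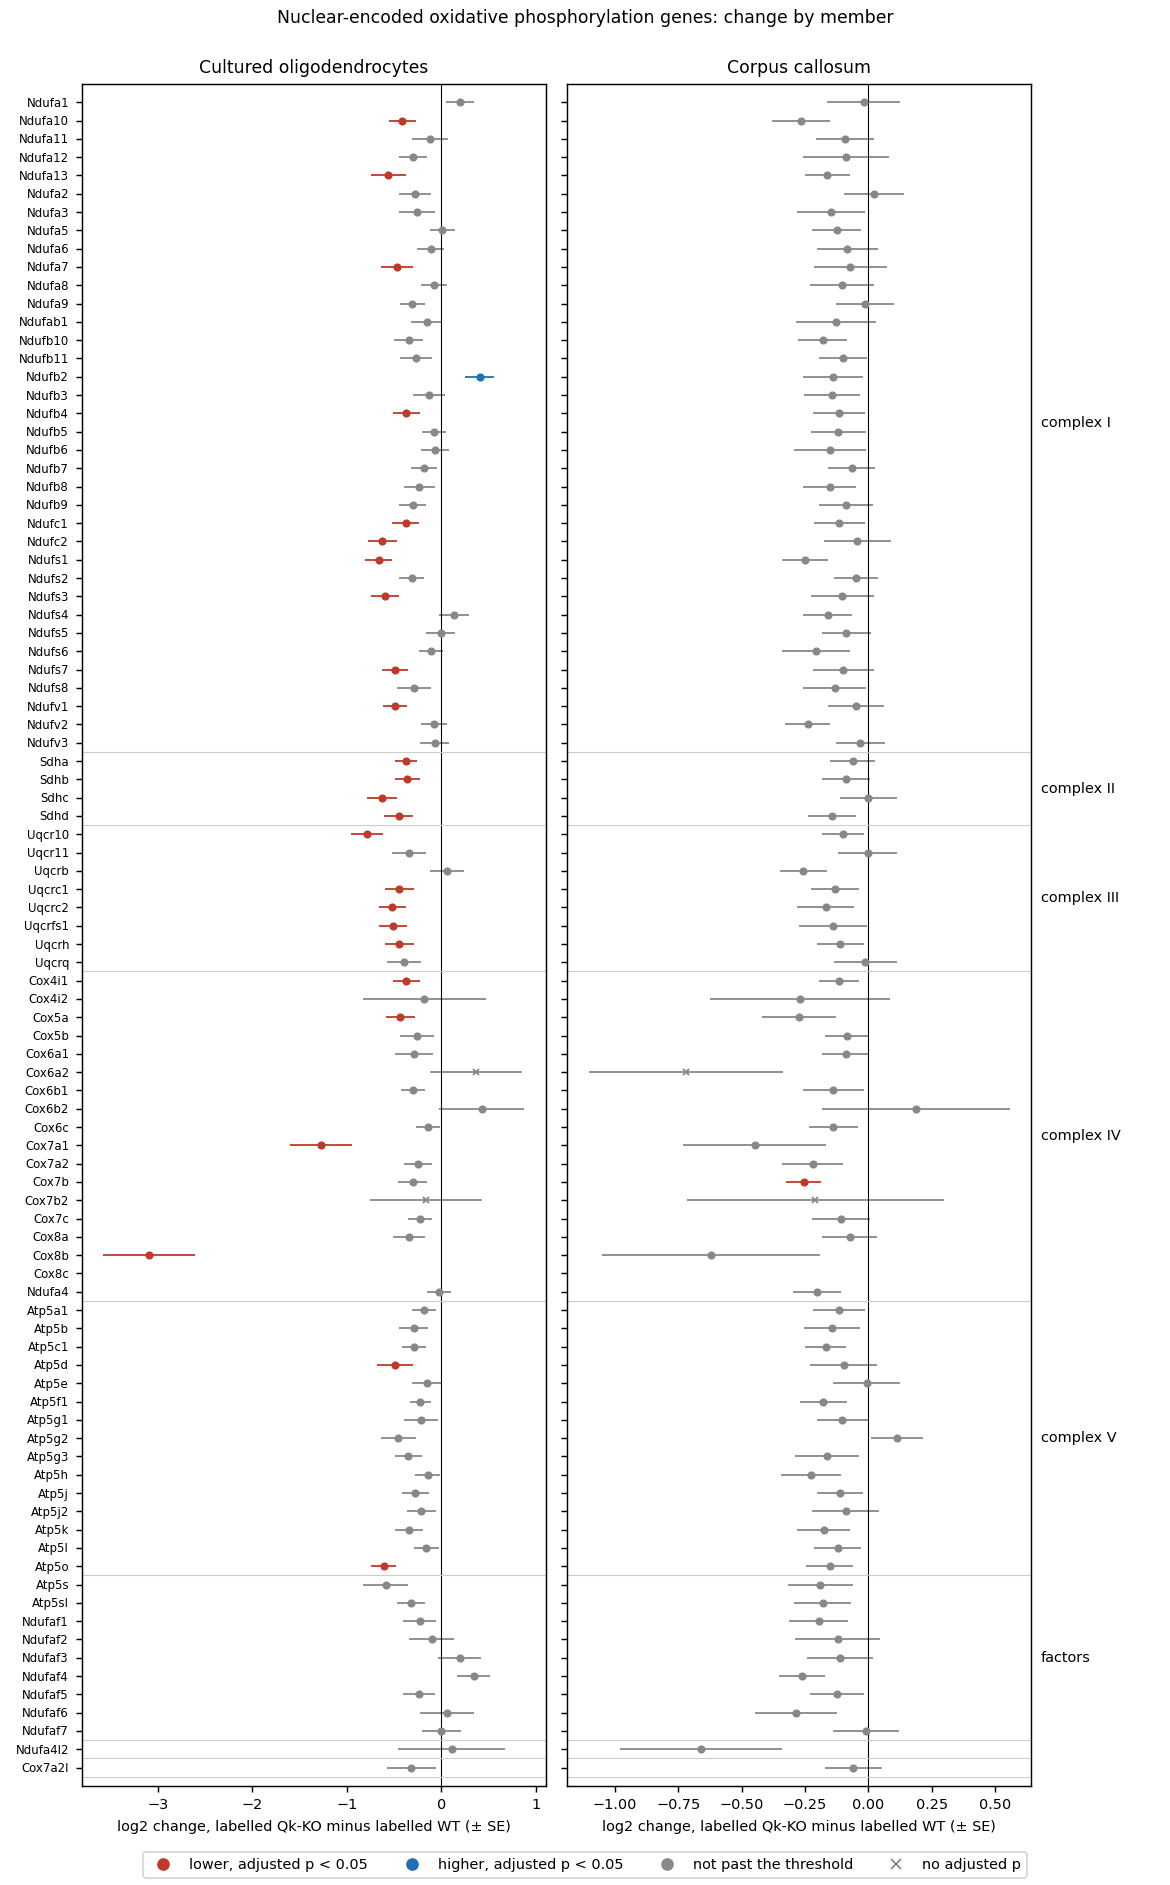
Change of each member with its standard error, on a log2 scale (x axis, labelled Qk-KO minus labelled WT), in culture (left) and callosum (right, with a narrower axis), in rows grouped by complex. In culture, 25 members are marked lower and Ndufb2 higher, with Cox8b at -3.09 and Cox7a1 at -1.28 apart from the rest, whereas Cox7b alone is marked in callosum.

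Complex I is built from a conserved core that carries the flavin and iron-sulfur centres and from many accessory subunits around it. In culture, 10 of its 36 nuclear subunits fell and 1 rose, with a median change of -0.27. Against 15.2% of all genes, 4 of 7 core subunits fell (57.1%), with a median of -0.49. Of the accessory subunits, 6 of 29 fell (20.7%), with a median of -0.19. This split was made after the values were seen, and the difference between its sides was not tested. Ndufs1 (ENSMUSG00000025968.16, chromosome 1, 63143596 to 63176833, minus strand), the large iron-sulfur subunit of the NADH-oxidising arm, had a fitted normalized count of 3743 in cultures labelled Qk-KO and 5928 in those labelled WT. Its log2 change was -0.66 ± 0.14 (adjusted p = 3.1e-05, authors' deposited table). Ndufv1, which binds NADH and FMN, had 3104 and 4363 in cultures labelled Qk-KO and WT (-0.49 ± 0.13, adjusted p = 0.000928, authors' deposited table). Ndufs3, of the ubiquinone-reducing arm, had 1632 and 2464 in cultures labelled Qk-KO and WT (-0.59 ± 0.15, adjusted p = 0.000505, authors' deposited table). Ndufs7, which holds the last iron-sulfur cluster before ubiquinone, had 1419 and 1992 (-0.49 ± 0.14, adjusted p = 0.00223, authors' deposited table).

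Among the accessory subunits of complex I, Ndufc2 of the membrane arm had the smallest adjusted p. It had 2647 fitted normalized counts in cultures labelled Qk-KO and 4079 in those labelled WT (-0.62 ± 0.15, adjusted p = 0.00033, authors' deposited table). Its partner Ndufc1 also fell, as did Ndufa7, Ndufa10, Ndufa13 and Ndufb4, with changes between -0.37 and -0.56 and adjusted p between 0.0104 and 0.0387 in the authors' deposited table. Of these, Ndufa13 alone kept its call under both scalings by library size. Ndufb2, a small membrane-arm subunit, was the only member called higher, with 520 in cultures labelled Qk-KO and 393 in those labelled WT (0.40 ± 0.16, adjusted p = 0.0398, authors' deposited table), a call lost without the filter on low counts. Exons of Ndufb2 overlap exons of Braf and of 2 predicted genes, and the strand setting of the counting is not given in the sources used here, so its reads cannot be told apart from theirs. Ndufa9, an accessory subunit near the ubiquinone site, was the uncalled complex I member with the smallest p (-0.31 ± 0.13, adjusted p = 0.0623, authors' deposited table).

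All 4 subunits of complex II fell in culture, with a median change of -0.41. Sdha, the flavoprotein that oxidises succinate, had a fitted normalized count of 9095 in cultures labelled Qk-KO and 11790 in those labelled WT (-0.37 ± 0.12, adjusted p = 0.00876, authors' deposited table). Sdhb, the iron-sulfur subunit, had 4729 and 6079 in cultures labelled Qk-KO and WT (-0.36 ± 0.13, adjusted p = 0.0249, authors' deposited table). The other subunits anchor the enzyme in the membrane. Sdhc (ENSMUSG00000058076.12, chromosome 1, 171127165 to 171150603, minus strand) had 3951 and 6111 in cultures labelled Qk-KO and WT (-0.63 ± 0.16, adjusted p = 0.000651, authors' deposited table), and Sdhd had 2154 and 2949 (-0.45 ± 0.15, adjusted p = 0.0138, authors' deposited table). Of the 4, Sdhc alone kept its call under every scaling tried, since Sdhb lost it under scaling by library size and Sdha, Sdhb and Sdhd lost it when mitochondrially encoded genes were also left out of the library size.

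In complex III, 5 of 8 nuclear subunits fell in culture, with a median of -0.45, among them both core proteins and the Rieske protein. Uqcr10 (ENSMUSG00000059534.8, chromosome 11, 4701973 to 4704342, minus strand), a small subunit next to cytochrome c1, had the strongest fall after Cox8b and Cox7a1, with 1577 in cultures labelled Qk-KO and 2721 in those labelled WT (-0.79 ± 0.16, adjusted p = 2.03e-05, authors' deposited table). Uqcrc2, a core protein, had 5598 and 8013 in cultures labelled Qk-KO and WT (-0.52 ± 0.14, adjusted p = 0.00217, authors' deposited table). Uqcrfs1, the Rieske iron-sulfur protein that passes electrons to cytochrome c1, had 2104 and 3004 (-0.51 ± 0.15, adjusted p = 0.00377, authors' deposited table). The other core protein gene Uqcrc1 and the hinge protein gene Uqcrh also fell, both by 0.45 (adjusted p = 0.0168 and 0.0176, authors' deposited table), and both calls were lost under both scalings by library size. Uqcrb, a ubiquinone-binding subunit, stood at 0.06 ± 0.18 with 7862 and 7531 in cultures labelled Qk-KO and WT, and it has 3 near-identical pseudogenes to which its reads may be split. Uqcrq missed the threshold at -0.40 ± 0.18 (adjusted p = 0.0766, authors' deposited table).

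In complex IV, 4 of 15 tested subunits fell in culture, with a median of -0.29, and the steepest falls were in isoforms known from heart and skeletal muscle. Cox8b (ENSMUSG00000025488.8, chromosome 7, 140898945 to 140900446, minus strand), the muscle isoform of subunit VIII, had a fitted normalized count of 8.6 in cultures labelled Qk-KO and 73.4 in those labelled WT, a log2 change of -3.09 ± 0.49 (adjusted p = 5.66e-09, authors' deposited table). Cox7a1 (ENSMUSG00000074218.2, chromosome 7, 30184144 to 30186078, plus strand), the muscle isoform of subunit VIIa, had 119 and 287 in cultures labelled Qk-KO and WT (-1.28 ± 0.33, adjusted p = 0.000669, authors' deposited table). Both are minor isoforms here. Per kb of transcript, Cox8b made up 0.145% of the Cox8a and Cox8b total in cultures labelled Qk-KO and 0.973% in those labelled WT. Cox7a1 made up 7.58% of the Cox7a1 and Cox7a2 total in cultures labelled Qk-KO and 14.4% in those labelled WT. The widely expressed counterparts stood at -0.34 ± 0.17 for Cox8a (adjusted p = 0.125) and -0.24 ± 0.15 for Cox7a2 (adjusted p = 0.215) in the authors' deposited table. Cox6b1, the uncalled complex IV member with the smallest p, had 8757 and 10810 in cultures labelled Qk-KO and WT (-0.30 ± 0.13, adjusted p = 0.0599, authors' deposited table). Cox6a1 stood at -0.29 ± 0.20 (adjusted p = 0.311) and Cox7b at -0.30 ± 0.15 (adjusted p = 0.124) in the authors' deposited table.

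The other restricted paralogs of complex IV did not pass. Cox6b2, known from testis, had 182 in cultures labelled Qk-KO and 135 in those labelled WT (0.43 ± 0.45, adjusted p = 0.542, authors' deposited table), or 2.27% and 1.38% of its pair with Cox6b1 per kb. Cox4i2, known from lung and from low oxygen, had 11.4 and 13 in cultures labelled Qk-KO and WT (-0.18 ± 0.65, adjusted p = 0.886, authors' deposited table). Ndufa4l2, which is induced by low oxygen, had 15.4 and 14.3 (0.11 ± 0.56, adjusted p = 0.923, authors' deposited table). Cox6a2, the muscle isoform of subunit VIa, and Cox7b2 had about 1 fitted normalized count or fewer in cultures of either label and carry no adjusted p, and Cox8c is listed at 0 in both systems. The widely expressed regulatory subunits Cox4i1 and Cox5a fell. Cox4i1 had 7542 and 9745 in cultures labelled Qk-KO and WT (-0.37 ± 0.14, adjusted p = 0.0343, authors' deposited table), and Cox5a fell by 0.43 (adjusted p = 0.0234, authors' deposited table). Both calls were lost under both scalings by library size, and that of Cox4i1 also without the filter on low counts. Ndufa4, now counted as a complex IV subunit, stood at -0.03 ± 0.13 (adjusted p = 0.909, authors' deposited table), and this value turns positive under scaling by library size. Cox7a2l, which joins complexes III and IV into supercomplexes, stood at -0.32 ± 0.26 (adjusted p = 0.399, authors' deposited table). Striated muscle markers, measured because muscle tissue is the known home of Cox8b and Cox7a1, summed to 69 and 116 fitted normalized counts over 8 genes in cultures labelled Qk-KO and WT. Among the 8 markers, Tnnc2 was at 0, 3 were tested and Tnnt3 alone passed, at 14.2 and 69.3 in cultures labelled Qk-KO and WT. Their part in the Cox8b and Cox7a1 values was not tested.

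**Figure D2:**
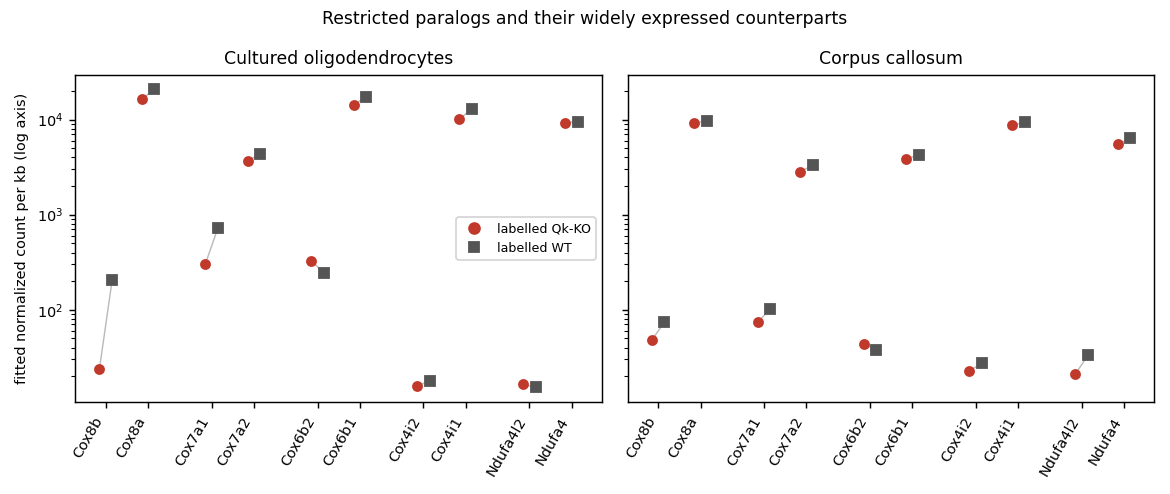
Fitted normalized count per kb of transcript (y axis, log scale) of restricted paralogs and their widely expressed counterparts in libraries labelled Qk-KO (circles) and WT (squares), in culture and callosum; the points are fitted means and have no replicate spread. Cox8b stands at 23.9 and 204 per kb in cultures labelled Qk-KO and WT, and at 48.1 and 74 per kb in callosum labelled Qk-KO and WT.

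In complex V, 2 of 15 subunits fell in culture (13.3%, under the 15.2% of all genes), and all 15 were negative with a median of -0.27. Atp5o, the oligomycin-sensitivity protein that ties the catalytic head to the stalk, had 5009 in cultures labelled Qk-KO and 7658 in those labelled WT (-0.61 ± 0.13, adjusted p = 4.19e-05, authors' deposited table). It has 1 near-identical pseudogene and overlaps 3 other annotated genes. Atp5d, the delta subunit of the central stalk, fell by 0.49 (adjusted p = 0.0435, authors' deposited table), a call lost under both scalings by library size and without the filter on low counts. The catalytic subunits did not pass. Atp5b, the beta subunit and per kb the highest member in both systems, had 39143 and 47989 in cultures labelled Qk-KO and WT (-0.29 ± 0.16, adjusted p = 0.156, authors' deposited table). Atp5a1, the alpha subunit, had 39821 and 45260 (-0.18 ± 0.12, adjusted p = 0.28, authors' deposited table). Atp5c1, the gamma subunit that forms the turning shaft, had 10058 and 12295 (-0.29 ± 0.13, adjusted p = 0.0758, authors' deposited table). The 3 genes for the identical mature c subunit of the rotor ring stood at -0.22 ± 0.18 for Atp5g1, -0.46 ± 0.19 for Atp5g2 and -0.35 ± 0.14 for Atp5g3. Atp5g2 and Atp5g3 lay just outside the threshold (adjusted p = 0.0526 and 0.0513, authors' deposited table).

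None of the 9 assembly or other factors passed in culture, with a median of -0.10. At an unadjusted p under 0.05, 2 of them were lower and 1 higher in the authors' deposited table. Ndufaf4, which acts early in complex I assembly, had 1235 in cultures labelled Qk-KO and 975 in those labelled WT (0.34 ± 0.17, adjusted p = 0.126, authors' deposited table), and it was called higher under scaling by library size. Atp5s, a factor with a coupling role in ATP synthase, lay at the threshold (-0.59 ± 0.24, adjusted p = 0.05, authors' deposited table). Outside the symbol rule, 4 of 37 tested assembly factors of a list fell (10.8%, under the 15.2% of all genes) and none rose. They were Taco1, which activates translation of mitochondrial cytochrome oxidase subunit I (-1.08 ± 0.21), Foxred1 of complex I assembly (-0.81 ± 0.19), Cox10 of haem synthesis (-0.46 ± 0.16) and Pet100 of complex IV assembly (-0.44 ± 0.17), in the authors' deposited table.

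Counting could blur some of these values. Near-identical pseudogenes (at least 95% identity over at least 50% of the transcript) exist for 11 members, of which 2 fell in culture, and 28 members share at least 50 exonic bases with another gene. Among the called members, Ndufs1, Ndufs3, Ndufa13, Ndufb2, Uqcrc2, Cox4i1, Cox5a, Atp5d and Atp5o have such an overlap, and without a stated strand setting those reads cannot be assigned. Without any such member, 17 of 57 fell (29.8%) and none rose, against 15.2% lower and 13.3% higher of all genes. The falls also depended on scaling. Scaling by library size moved the median of all genes in culture by 0.077 log2 units, and then 15 members fell (16.9%) and 2 rose (2.25%), against 13.1% and 17.4% of all genes. When the mitochondrially encoded genes were also left out of the library size, a setting chosen after seeing the data, the shift was 0.109, 13 members fell (14.6%) and 2 rose (2.25%), against 12.3% and 19.5% of all genes. With a Student reference on 4 degrees of freedom in place of the normal one, no member and no other gene of the culture table passed.

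**Figure D3:**
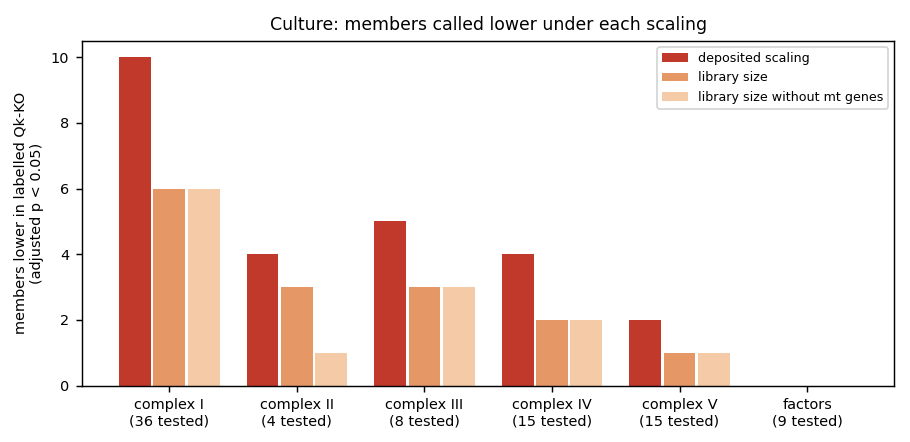
Number of members called lower in cultures labelled Qk-KO (y axis) in each complex under the deposited scaling, scaling by library size and scaling by library size without mitochondrially encoded genes. Complex I goes through 10, 6 and 6 calls, complex II through 4, 3 and 1, complex III through 5, 3 and 3, complex IV through 4, 2 and 2, and complex V through 2, 1 and 1, and factors have none under any of them.

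Genes of the TCA cycle, which supplies the electrons, were also lower in culture. Of 17 genes for its enzymes and for pyruvate dehydrogenase, 11 fell and none rose, with a median of -0.39. The falls took 64.7% of this list, against 15.2% of all genes. Idh3a, a subunit of NAD-dependent isocitrate dehydrogenase, stood at -0.59 ± 0.13 (adjusted p = 0.000101), and Pdha1 of pyruvate dehydrogenase at -0.58 ± 0.13 (adjusted p = 0.000113), in the authors' deposited table. Cs, citrate synthase, stood at -0.65 ± 0.16 (adjusted p = 0.000441, authors' deposited table). Cyc1, the cytochrome c1 subunit of complex III that the symbol rule misses, had 1906 and 2855 in cultures labelled Qk-KO and WT (-0.58 ± 0.19, adjusted p = 0.0124, authors' deposited table). Cycs, the mobile cytochrome c, stood at -0.18 ± 0.14 (adjusted p = 0.365, authors' deposited table). Of the 13 mRNAs encoded by mitochondrial DNA, 10 were tested in culture, none passed and all 10 were negative with a median of -0.34. Of the 3 without an adjusted p, mt-Co2 had 239 and 112 in cultures labelled Qk-KO and WT and mt-Co3 had 373 and 111, with positive changes of 1.09 ± 0.68 and 1.75 ± 0.75 in the authors' deposited table. Both lie far above the mean of 8.52 below which low counts carry no adjusted p, and no other reason for the gap is given. Whether a single library set these values could not be examined. The third, mt-Nd4l, stood at -0.56 ± 0.75 in the authors' deposited table. Their largest, mt-Co1, had 729747 and 1074047 in cultures labelled Qk-KO and WT (-0.56 ± 0.24, adjusted p = 0.0608, authors' deposited table). At an unadjusted p under 0.05, mt-Co1 and mt-Nd4 were the only ones of the 10.

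Known regulators of respiratory genes moved in both directions in culture, with 1 of 12 lower and 2 higher. These shares of 8.33% and 16.7% stand beside 15.2% and 13.3% of all genes. Ppargc1a, the coactivator PGC-1 alpha, had 1427 in cultures labelled Qk-KO and 2207 in those labelled WT (-0.63 ± 0.20, adjusted p = 0.00941, authors' deposited table). Gabpb1, a subunit of the ETS-family factor NRF-2, had 1336 and 823 (0.70 ± 0.17, adjusted p = 0.000388, authors' deposited table). Tfb2m, a mitochondrial transcription factor, had 1199 and 871 (0.46 ± 0.18, adjusted p = 0.0357, authors' deposited table). The remaining 9 did not pass, among them Nrf1 at 0.22 ± 0.15, Gabpa at -0.37 ± 0.16 and Tfam at 0.30 ± 0.15 in the authors' deposited table. A list of pathway genes under other symbols, not all of them subunits, was added after the values were seen. In it, Atpif1, the inhibitor of ATP synthase, rose to 7271 in cultures labelled Qk-KO, against 4012 in those labelled WT (0.86 ± 0.16, adjusted p = 1.06e-06, authors' deposited table). In the same list, 2010107E04Rik and 1810043H04Rik fell, by 0.52 and 0.80, and Usmg5 stood at 0.10 ± 0.14, in the authors' deposited table.

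Marker genes of several cell types differed between the labels in culture. Over all genes tested there, 15.2% fell and 13.3% rose. Of 10 astrocyte markers, 8 fell and none rose, and the list summed to 175931 and 617442 fitted normalized counts in cultures labelled Qk-KO and WT. Of 10 neuron markers, 7 rose and none fell, with sums of 75181 and 33583. Of 8 cell cycle genes, 6 rose and none fell, with sums of 7914 and 4989. Of 10 oligodendrocyte markers, 2 rose and 2 fell, and of 8 precursor markers, 2 rose and 3 fell. No defining marker of these lists was at 0. The part of these differences in the members' falls was not tested.

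In the corpus callosum, nearly all members stood slightly lower in libraries labelled Qk-KO, and Cox7b alone passed. Of 89 members tested, 1 fell and none rose, or 1.12% of members called against a background of 2.32% of 19935 genes (0.231% lower and 2.09% higher). At an unadjusted p under 0.05, 9 members were lower and none higher in the authors' deposited table, against 3.01% and 5.07% of all genes. Negative changes made up 96.6% of members (86 of 89) against 51.8% of all genes, and 60.5% of the genes with a mean normalized count of at least 1000. The median was -0.12 for members and -0.01 for all genes, or -0.03 for the abundant genes, while the median SE of a member was 0.11. The size of the typical member's change was thus about that of its own standard error, and 75 of the 89 members lay between -0.25 and 0. Cox7b (ENSMUSG00000031231.4, chromosome X, 106015700 to 106022450, plus strand), a small subunit needed for complex IV assembly, had a fitted normalized count of 1851 in callosum labelled Qk-KO and 2209 in callosum labelled WT. Its log2 change was -0.26 ± 0.07 (adjusted p = 0.0137, authors' deposited table), and it did not pass with a Student reference on 6 degrees of freedom.

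**Figure D4:**
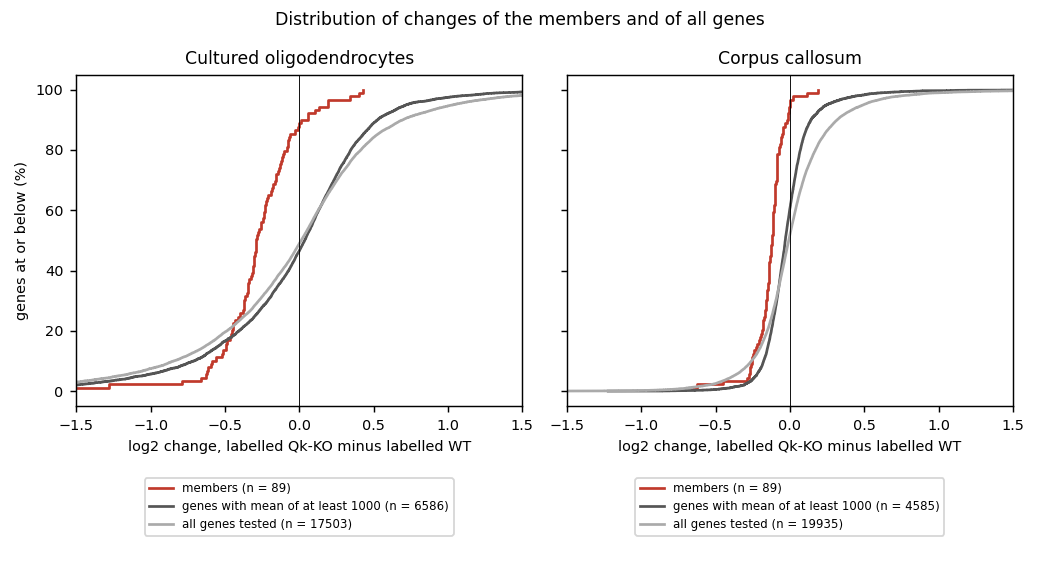
Share of genes at or below each log2 change (x axis, labelled Qk-KO minus labelled WT, drawn from -1.5 to 1.5) for members, for genes with a mean normalized count of at least 1000 and for all genes tested, in culture and callosum. The member curve lies left of the others over most of its range, with medians of -0.29 in culture and -0.12 in callosum, against 0.01 and -0.01 for all genes.

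By complex, the medians in callosum were -0.11 for complex I, -0.07 for complex II, -0.12 for complex III, -0.14 for complex IV, -0.12 for complex V and -0.18 for the factors. The uncalled members with small p included Ndufaf4 (-0.26 ± 0.09, adjusted p = 0.144), Uqcrb (-0.26 ± 0.09, adjusted p = 0.16) and Ndufs1 (-0.25 ± 0.09, adjusted p = 0.162), in the authors' deposited table. In the other complexes, they were Atp5c1 (-0.17 ± 0.08, adjusted p = 0.561), Ndufa4 (-0.20 ± 0.09, adjusted p = 0.51) and Sdhd (-0.14 ± 0.10, adjusted p = 0.882), in the authors' deposited table. Sdhc had 1383 and 1384 fitted normalized counts in callosum labelled Qk-KO and WT. Cox8b had 17.3 and 26.6 (-0.62 ± 0.43, adjusted p = 0.906), and Cox7a1 had 29.2 and 39.9 (-0.45 ± 0.28, adjusted p = 0.84), in callosum labelled Qk-KO and WT in the authors' deposited table. Cox6a2 had 44 and 72.6 in callosum labelled Qk-KO and WT, with no p given in that table, and Ndufa4l2 had 19.7 and 31.2 (-0.66 ± 0.32, adjusted p = 0.557, authors' deposited table). The mean of Cox6a2, 58.3, lies above the low counts that carry no adjusted p. Why its p is missing is not given, and whether a single library set its values could not be examined. The 3 positive members were Cox6b2, Atp5g2 and Ndufa2.

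In the neighbouring pathways, no gene was called in callosum. The 17 TCA cycle and pyruvate dehydrogenase genes had a median of -0.11 with 16 negative, and the 12 tested mitochondrially encoded mRNAs had a median of -0.20 with all 12 negative. None of the 12 regulators passed there (median -0.05), nor did any of the 37 assembly factors outside the symbol rule (median -0.09) or either cytochrome c gene. At an unadjusted p under 0.05, the authors' deposited table held Sucla2, Pdhb and Dlat of the TCA list, mt-Nd1, mt-Atp6 and mt-Atp8 of the mitochondrial list, Cycs, and Atpaf1, Ttc19 and Cox16 of the assembly factors, all lower, and none of the regulators. Cell type markers moved alongside. Over all genes tested in callosum, 0.231% fell and 2.09% rose. At an unadjusted p under 0.05 in the authors' deposited table, 3.01% were lower and 5.07% higher. Of 10 oligodendrocyte markers, 4 rose (Mog, Mag, Opalin and Myrf, with changes between 0.94 and 1.16 in the authors' deposited table) and none fell, and the list's median was 0.39. At an unadjusted p under 0.05, 6 of the 10 were higher and 1 was lower in the authors' deposited table. Of 10 microglia markers, 8 rose, with sums of 19274 and 9006 in callosum labelled Qk-KO and WT, and of 10 astrocyte markers 2 rose, with sums of 123817 and 101834. Of 10 neuron markers, none passed, 1 was lower at an unadjusted p under 0.05 and 9 were negative, with sums of 118271 and 129483 in callosum labelled Qk-KO and WT. Of 8 choroid plexus markers, none passed, 7 were lower at an unadjusted p under 0.05 and all 8 were negative, with sums of 24059 and 42026. Striated muscle markers summed to 280 and 463 with Tnnc2 at 0, none passed and 3 were lower at an unadjusted p under 0.05, and no other listed marker was at 0. The part of these cell types in the members' small shift was not tested.

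Whether the change differed between systems was tested directly, by a z test on culture minus callosum adjusted over the 16601 genes tested in both tables, which share no library. Of 89 members, 9 differed, 7 more negative in culture and 2 more positive, beside a background of 21.5% of all genes (11.7% more negative and 9.84% more positive). The median difference was -0.15 for members and 0.02 for all genes, and 67 of 89 members were more negative in culture. Cox8b differed by -2.47 ± 0.65 (adjusted p = 0.00149), with -3.09 in culture and -0.62 in callosum. The deposited changes of genes with few reads appear shrunken. In culture, the SEs of Cox6a2 and Cox7b2 (0.49 and 0.59, at means of 0.509 and 0.949) were below that of Cox4i2 (0.65, at 12.1). This shrinkage may differ between the systems, most for genes with few reads such as Cox8b, and the test does not allow for it. Uqcr10 differed by -0.69 (adjusted p = 0.00194) and Sdhc by -0.63 (adjusted p = 0.00943). Ndufc2, Atp5g2, Atp5o and Ndufv1 differed by -0.58, -0.57, -0.46 and -0.44, with adjusted p between 0.0226 and 0.0441. Atp5g2, Atp5o and Ndufv1 lost the call under scaling by library size. Ndufc2 lost it when mitochondrially encoded genes were also left out of the library size. Ndufaf4 and Ndufb2 differed the other way, by 0.60 (adjusted p = 0.0126) and 0.54 (adjusted p = 0.0305), and both stood below 0 in callosum. With a Student reference on 10 degrees of freedom, Cox8b and Uqcr10 alone kept the call. Cox7a1, with -1.28 in culture and -0.45 in callosum, did not differ past the threshold (-0.83 ± 0.43, adjusted p = 0.17).

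Of the 89 members, 77 were negative in both systems, 9 in callosum only, 2 in culture only, and 1, Cox6b2, was positive in both. Over all genes tested, 51.8% were negative in callosum and 48.9% in culture, and the share negative in both was not counted. Cox7b, the only member called in callosum, was not called in culture. The share of all genes called in both was not counted. The order of members was not shared: across the 89 members, the changes in culture and callosum had a Spearman correlation of -0.05 and a Pearson correlation of 0.38, which was 0.06 without Cox8b. These correlations are over genes that share libraries and are given as a description.

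**Figure D5:**
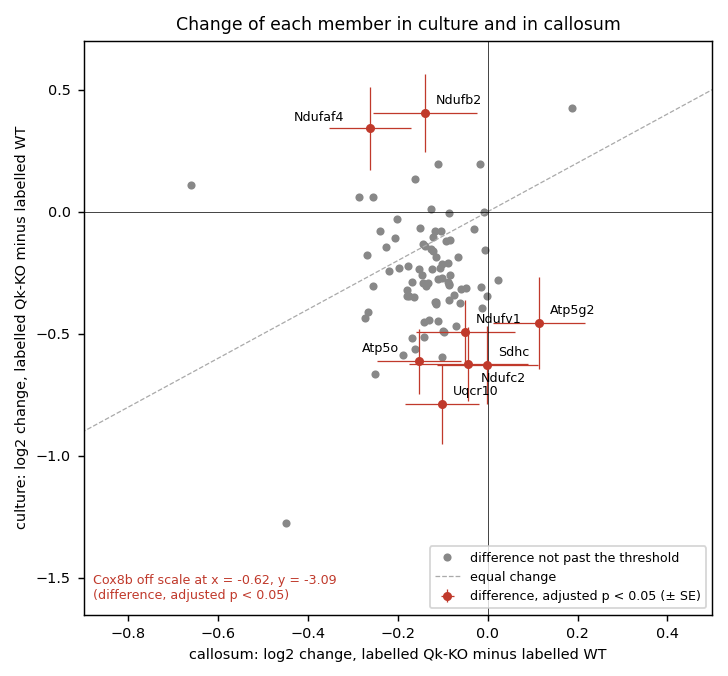
Log2 change of each member in culture (y axis) against callosum (x axis), both labelled Qk-KO minus labelled WT; members whose change differed between systems are in red with standard errors, and the dashed line marks equal change. Cox8b lies off the axes at -0.62 and -3.09, and most members lie left of 0 in callosum and below 0 in culture.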

How the data were processed

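Mouse RNA-seq tables from cultured oligodendrocytes and corpus callosum were used. Per the submitters' processing notes, the authors used FastQC, TopHat2 2.0.14, featureCounts and DESeq2 with build mm10. The annotation, the strand setting and the model formula are each not given in the sources used here. The deposited library columns are log2 values, and a check showed them to be the log2 of fitted means plus 1, with a constant factor within a genotype (tolerance 1e-09). Fitted means that differ only by such a factor hold no term for passage. The SEs and p-values in culture thus do not allow for the passages that the labels share. The deposited mean column is a normalized signal, and the deposited score is the log2 change over its standard error. The p-value columns are the authors' Wald p-values with Benjamini-Hochberg adjustment. The deposited log2 changes run WT over Qk-KO and were turned round. Very low counts (means under 8.08 in callosum and 8.52 in culture) carry no adjusted p. Some genes above these means also carry none, such as Cox6a2 in callosum (mean 58.3), and the reason is not given in the sources used here. The count test and the replicate checks of the plan were not run, because fitted means hold no spread. Fitted normalized counts per label were computed from the library columns, with a median ratio to the deposited mean of 1.007 in callosum and 1.005 in culture. Levels per kb use the length of the first-numbered GENCODE M21 coding transcript, and levels were not compared between tables. Library columns of samples not in the labels numbered 0. Calls use an adjusted p under 0.05.

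The difference between systems was tested with a z test, checked on simulated data, in Python 3.11.15 with pandas 2.3.3, numpy 2.4.6 and SciPy 1.17.1, and figures were drawn with matplotlib 3.10.9. Alternatives were filters on low counts, scalings, a Student reference and thresholds. Members and lists were chosen with earlier results of these data known. Named with values are called members (at most the 12 with the smallest adjusted p per direction), fixed paralogs, c subunits and complex II, the 10 members with the largest absolute z of the difference between systems, the 5 most abundant, the uncalled member with the smallest p per complex, regulators, cytochromes c and at most 4 called genes per pathway list. The other called members, the subgroups within complexes, genes given at an unadjusted p and pathway genes under other symbols were named after their values were seen. Where nothing says that libraries came from separate cultures, p-values measure only the spread between these samples. The values of some genes of the lists are not reported here.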

Additional observations from a re-analysis of the deposited data

Results flagged for a closer look

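For 9 members, the change in culture (labelled Qk-KO minus labelled WT) differed from the change in callosum by the test of that difference. Of all members tested, 7.87% were called more negative in culture and 2.25% more positive, against 11.7% and 9.84% of all genes. Members were thus called less often than genes in general. Cox8b differed by -2.47 log2 units, with -3.09 ± 0.49 in culture and -0.62 ± 0.43 in callosum (SE). Its fitted normalized counts were 8.6 and 73.4 in cultures labelled Qk-KO and WT and 17.3 and 26.6 in callosum labelled Qk-KO and WT, all far below those of Cox8a. Uqcr10 differed by -0.69, Sdhc by -0.63, Ndufc2 by -0.58, Atp5g2 by -0.57, Atp5o by -0.46 and Ndufv1 by -0.44. Ndufaf4 differed by 0.60 and Ndufb2 by 0.54. Cox8b and Uqcr10 alone kept the call with a Student reference, and Atp5g2, Atp5o and Ndufv1 also lost it under scaling by library size. For Atp5g2, neither system alone passed, with -0.46 ± 0.19 in culture and 0.11 ± 0.10 in callosum, and for Ndufaf4 neither passed, with 0.34 ± 0.17 in culture and -0.26 ± 0.09 in callosum. Treatment (40HT or EtOH) and label cannot be told apart in culture.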

How the results depend on the processing

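In culture, members called were 26 (25 lower, 1 higher) under the deposited scaling, 17 under scaling by library size (15 lower, 2 higher), 15 without mitochondrially encoded genes in the library size (13 lower, 2 higher), 13 at an adjusted p under 0.01 (13 lower, 0 higher) and 0 with a Student reference (0 lower, 0 higher, and none of the whole table). Of the 26, 16 were shared under library size and 14 without mitochondrially encoded genes. Without the filter on low counts 22 were lower and 0 higher. In callosum, the single call (Cox7b, lower) became 0 with a Student reference and 0 at an adjusted p under 0.01, and stayed at 1 under the other settings. For the difference between systems, calls moved from 9 to 6 under library size (4 lower), 5 without mitochondrially encoded genes (3 lower), 2 with a Student reference (2 lower, 0 higher) and 3 at an adjusted p under 0.01 (3 lower, 0 higher). A mean count of at least 100, median centring and an adjusted p under 0.1 gave 30, 31 and 37 calls in culture. Signs of values close to 0 turned under the scalings. In callosum, library size gave 0.01 for Ndufa9, 0.02 for Sdhc and 0.01 for Uqcrq, without mitochondrially encoded genes 0.00, 0.01 and 0.00, and median centring gave 0.01 for Sdhc. In culture, Ndufa4 went to 0.05 and 0.08. For the difference, Cox7a2 went to 0.03 and 0.07, Cox7b to 0.01 and 0.04, and Atp5a1 to 0.02 without mitochondrially encoded genes. No paired analysis was possible because the deposited library columns hold fitted means without replicate spread, and leaving out each replicate was not run for the same reason. Fitted folds of genes with few reads, such as Cox8b, may be understated by shrinkage.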
